A study of Mus musculus with 5 samples.

Results

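The growth hormone, STAT5 and IGF axis was described through 10 genes that were chosen by name: the receptor Ghr, its kinase Jak2, the transcription factors Stat5a and Stat5b, the repressor Bcl6, the secreted products Igf1 and Igfals, and the feedback inhibitors Socs2, Socs3 and Cish. All 10 had a probe set annotated to that gene alone, among 22059 genes measured in this way by 23396 probe sets. For genes with more than 1, the brightest by its mean over the 5 arrays was used. The arrays were Affymetrix Mouse 2.0 ST chips, hybridized with RNA from cultures labelled as primary astrocytes, the star-shaped support cells of the brain. The methods describe cortical cultures of 1-day-old FVB mice heterozygous for a transgene of LRRK2, a kinase gene, either in the wild-type form (LRRK2-WT, 2 arrays) or with the G2019S mutation linked to Parkinson's disease (LRRK2-GS, 3 arrays). The sources used here give neither the promoter of the transgene nor the number of animals behind an array. Both groups received tunicamycin, which blocks protein glycosylation and stresses the endoplasmic reticulum, at 0.2 μg/ml for 3 h by the labels. The methods also give that dose, but a legend of the study gives a lower one. Both that legend and the results text of the study give a longer time, and the differences could not be settled here. No untreated array was analysed here, so the comparison asks only how the genotypes differed under stress.

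Growth hormone from the pituitary binds GHR, which carries the kinase JAK2. JAK2 phosphorylates STAT5A and STAT5B, which enter the nucleus and switch on target genes. In liver these include Igf1, the main circulating growth factor of the axis, and Igfals, whose protein keeps IGF1 in a long-lived complex in blood. CISH, SOCS2 and SOCS3 are induced by the same signal and damp it, and BCL6 represses many STAT5 targets in mouse liver. The pulse pattern of growth hormone differs between male and female rodents, and STAT5B and BCL6 carry that difference into sex-biased liver genes. In brain, IGF1 is made by several cell types, and astrocytes respond to it.

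STAT5 binds the palindrome TTCNNNGAA, which reads the same on both strands and overlaps the sequence that BCL6 recognizes. Promoter windows of 300 bases, 250 before and 50 after each start site, were taken from the RefSeq table of build GRCm38.p6 and held 9 of the 10 genes. The palindrome lay in a window of 4 of these 9 (Bcl6, Cish, Igfals and Socs3), or in 6 of their 15 windows, and in 8.30% of all 32851 windows or 9.55% of all 27025 genes. One start site of Bcl6 had 3 matches and that of Cish had 2, and 2 or more were found in 0.457% of windows. No match was found in the windows of Ghr, Igf1, Jak2, Stat5a or Stat5b. The gene spans of Igf1, Socs3, Stat5a and Stat5b begin upstream of all their windows, and the sequence there was not searched. The matches are printed because they show which members of the axis carry the letters that STAT5 reads close to a start. Capitals mark the palindrome, and each stretch is written 5′ to 3′ on the strand of the gene.
Cish, chr9:107296654-107296683, plus strand, first match beginning at base 1 of the transcript and the other at base 12: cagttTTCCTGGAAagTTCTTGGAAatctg
Socs3, chr11:117969502-117969530, minus strand, 154 bases before the start: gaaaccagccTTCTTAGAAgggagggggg
Bcl6, chr16:23988952-23988980, minus strand, 118 bases before the upstream start: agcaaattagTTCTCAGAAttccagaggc
Bcl6, chr16:23981433-23981461, minus strand, 168 bases before the downstream start: aggccgcggcTTCCTGGAAagttacttct
Bcl6, chr16:23981387-23981415, minus strand, 122 bases before that start: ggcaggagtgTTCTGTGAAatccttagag
Bcl6, chr16:23981353-23981381, minus strand, 88 bases before that start: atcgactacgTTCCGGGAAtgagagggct
Igfals, chr17:24877598-24877626, plus strand, 236 bases before its first start: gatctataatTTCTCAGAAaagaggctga
Igfals, chr17:24878163-24878191, plus strand, 58 bases before another start: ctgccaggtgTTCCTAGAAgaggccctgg
A match is a description of these letters and not a measured site.

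Values are log2 expression per probe set as the authors deposited them, and differences are LRRK2-GS minus LRRK2-WT. Array medians lay between 3.26 and 3.28, and Pearson's r across probe sets was 0.986 to 0.994 within a genotype and 0.988 to 0.992 between genotypes. Because nothing in the sources used here ties the arrays to separate cultures or animals, p-values cover only how far the arrays spread, possibly for technical reasons, and the precision is limited by their number, 5. A background level of 3.39 was taken from 1107 probe sets of olfactory receptors, as their 95th percentile. The labelled cell type was checked against markers. Of 20 astrocyte markers, 14 had a mean above background and 6 exceeded 6.42, the 90th percentile over probe sets, on every array. The brightest 3 were Ndrg2 at 9.45 ± 0.19 and 9.13 ± 0.66, Clu at 9.02 ± 0.02 and 9.05 ± 0.01, and Slc4a4 at 8.08 ± 0.00 and 7.93 ± 0.42, given as LRRK2-WT then LRRK2-GS. Ndrg2 and Clu are known to be expressed in liver as well. Gfap, the classical astrocyte filament, read 4.05 ± 0.08 (SD, n = 2) on the LRRK2-WT arrays and 4.16 ± 0.10 (SD, n = 3) on the LRRK2-GS arrays, and the water channel Aqp4 lay under background at 2.75 ± 0.12 and 2.76 ± 0.14. All 22 measured hepatocyte markers exceeded 6.42 on every array, the brightest being serum albumin, Alb, at 12.66 ± 0.05 and 12.61 ± 0.06. Hepatocyte markers at these levels and Aqp4 under background went against the label, and the values below were not assigned to any cell type. The groups also differed in sex-linked transcripts. Xist, which is transcribed from the inactive X chromosome, read 8.49 and 8.09 on the LRRK2-WT arrays and 2.41, 2.65 and 2.64 on the LRRK2-GS arrays. The Y-linked Eif2s3y read 2.03 and 2.31 against 6.13, 6.68 and 6.42. Uty and Kdm5d, also on the Y chromosome, had differences of 3.85 and 2.24, so genotype and sex chromosome transcripts cannot be told apart in any comparison here.

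No difference between the genotypes passed the test in any of the 10 axis genes. limma, a linear model with a pooled estimate of the spread, with a call needing more than 1.5-fold and an adjusted p (Benjamini-Hochberg) no higher than 0.05, called 0 of the 10 and 0 of all 23396 probe sets (0%). At an unadjusted p under 0.05 it gave 0 of the 10, beside 489 probe sets in all (2.09%). No axis gene was over 1.5-fold apart, whatever the p, beside 0.957% of probe sets. Of the 10, 7 had a lower mean in LRRK2-GS and 3 a higher one, with a median difference of -0.13, against a median of 0 over all probe sets. Their adjusted p-values ran from 0.826 to 1. limma also called none of the sex-linked genes, with adjusted p of 0.207 for Xist, 0.387 for Eif2s3y, 0.519 for Uty and 0.826 for Kdm5d. The lack of calls is thus no evidence that the axis genes were equal between the genotypes. The intervals were wide for some axis genes and narrow for others, as the plot of differences shows.

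**Figure D1:**
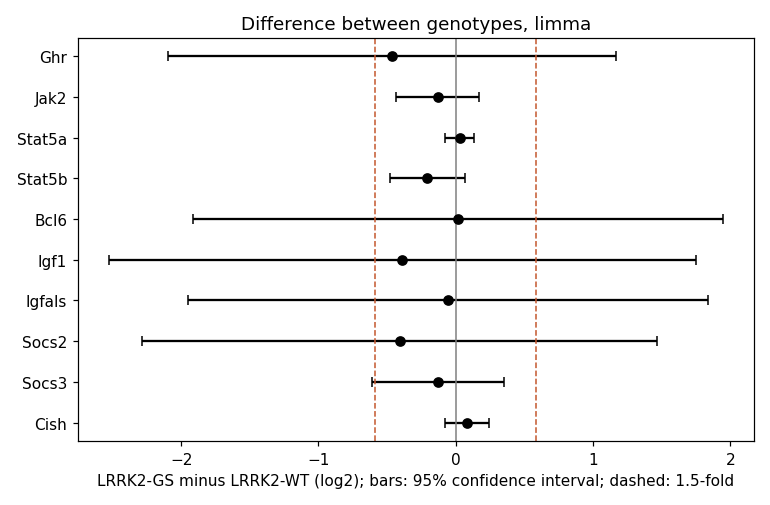
Difference of each axis gene, LRRK2-GS minus LRRK2-WT in log2 units, with limma's 95% confidence interval as bars and 1.5-fold as dashed lines. Every interval includes 0, and those of Ghr, Bcl6, Igf1, Igfals and Socs2 pass 1.5-fold on both sides, whereas those of Jak2, Stat5a, Stat5b and Cish stay within it.

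Ghr, the receptor at the top of the axis, varied over 1.44 log2 units among the LRRK2-GS arrays. It read 6.31 and 5.63 on the LRRK2-WT arrays and 4.91, 5.26 and 6.35 on the LRRK2-GS arrays. LRRK2-GS arrays 1 and 2 lay below both LRRK2-WT arrays, whereas LRRK2-GS array 3 was the highest of the 5. The means were 5.97 ± 0.48 (SD, n = 2) and 5.50 ± 0.75 (SD, n = 3), a difference of -0.47 (95% confidence interval -2.10 to 1.16, limma adjusted p = 0.826). The difference was -0.89 without LRRK2-GS array 3 and -0.13 without LRRK2-WT array 1. Because bulk RNA was measured, fewer cells that make a transcript and less of it per cell cannot be told apart.

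Jak2, the kinase bound to the receptor, was the only axis gene whose genotypes did not overlap. It read 6.40 and 6.35 in LRRK2-WT and 6.07, 6.33 and 6.33 in LRRK2-GS. The gap between the groups was small, since LRRK2-GS arrays 2 and 3 held the same value just under LRRK2-WT array 2. The difference was -0.13 (interval -0.43 to 0.17, adjusted p = 0.826), or 1.09-fold lower, and it shrank to -0.04 without LRRK2-GS array 1. Thus 1 of 10 axis genes lay below both LRRK2-WT arrays on every LRRK2-GS array, as did 3.74% of all probe sets and 5.45% of those above background. None lay above, as 3.76% and 3.36% did. After quantile normalization of the deposited values or cyclic loess, Jak2 overlapped too.

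The STAT5 transcription factors had the narrowest intervals of the axis together with Cish. Stat5a read 4.71 on 4 arrays and 4.80 on LRRK2-GS array 1, a difference of 0.03 (interval -0.08 to 0.13, adjusted p = 0.826) that rested on this array alone. Stat5b, the form that carries most of the growth hormone signal in liver, read 6.41 and 6.59 in LRRK2-WT and 6.24, 6.23 and 6.41 in LRRK2-GS. LRRK2-GS array 3 lay just above LRRK2-WT array 1, and the other LRRK2-GS arrays lay below both. Its difference of -0.21 (interval -0.48 to 0.07, adjusted p = 0.826) had the smallest unadjusted p of the 10, at 0.101. It depended on the LRRK2-WT arrays, since it was -0.12 when array 2 of that group was left out and -0.30 when array 1 was. The split of the 5 arrays into the genotype groups, which sex-linked transcripts separate too, held 57.5% of the sum of squares of Stat5b. This was the largest share among the 10 genes, where the median was 15.5%, beside 19.3% for all probe sets that varied. The paralogs lie next to each other on chromosome 11 and are closely alike, and whether their probe sets read each other's transcripts was not tested.

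Bcl6, the repressor, had nearly equal means and a wide spread within LRRK2-GS. It read 4.94 and 5.38 in LRRK2-WT and 4.15, 5.38 and 6.01 in LRRK2-GS, so that LRRK2-GS held both the lowest and the highest array. The difference was 0.02 (interval -1.91 to 1.94, adjusted p = 1), and its sign turned when LRRK2-GS array 3 (-0.40), LRRK2-WT array 1 (-0.21) or LRRK2-GS array 2 (-0.08) was left out. The LRRK2-GS arrays spanned 1.87 log2 units, against 0.44 between the LRRK2-WT arrays.

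The secreted products Igf1 and Igfals followed the same order of arrays at the top. Igf1 read 6.96 and 6.53 in LRRK2-WT and 6.32, 5.32 and 7.44 in LRRK2-GS, a difference of -0.39 (interval -2.53 to 1.75, adjusted p = 0.899). Its LRRK2-GS arrays spanned 2.12 log2 units, the widest range of the axis, and the difference went from -0.93 when LRRK2-GS array 3 was left out to 0.13 when array 2 of that group was. Igfals read 4.04 and 3.38 in LRRK2-WT and 3.44, 2.88 and 4.64 in LRRK2-GS, with 3 of the 5 arrays above the background level. For both genes LRRK2-GS array 3 was the highest, LRRK2-WT array 1 came next, and LRRK2-GS array 2 was the lowest. The difference of Igfals was -0.06 (interval -1.95 to 1.83, adjusted p = 1), and it became positive when LRRK2-GS array 2 (0.33), LRRK2-WT array 1 (0.27) or LRRK2-GS array 1 (0.05) was left out.

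Among the feedback inhibitors, Socs2 varied widely between arrays and Socs3 and Cish hardly did. Socs2 read 4.56 and 3.44 in LRRK2-WT and 2.93, 3.41 and 4.43 in LRRK2-GS, with LRRK2-GS array 1 under the background level. LRRK2-WT array 1 and LRRK2-GS array 3 stood about 1 log2 unit above the others, so the genotypes overlapped. Its difference was -0.41 (interval -2.29 to 1.47, adjusted p = 0.867), and 0.15 without LRRK2-WT array 1. Another probe set of Socs2 had a mean under background and a difference of -0.04. Socs3 read 4.51 on both LRRK2-WT arrays and LRRK2-GS array 1, 4.53 on LRRK2-GS array 2 and 4.10 on LRRK2-GS array 3. LRRK2-GS array 3, high in Ghr, Igf1 and Socs2, was thus the lowest in Socs3, whose difference was -0.13 (interval -0.61 to 0.35, adjusted p = 0.826) and 0.0089 without that array. Cish, close to background, read 3.62 and 3.46 in LRRK2-WT and 3.62, 3.62 and 3.64 in LRRK2-GS, a difference of 0.08 (interval -0.08 to 0.25, adjusted p = 0.826). LRRK2-WT array 1 held the same value of Cish as LRRK2-GS arrays 1 and 2. When it was left out the difference was 0.16 with a limma adjusted p of 0.0341, under 1.5-fold and so not called, and when LRRK2-WT array 2 was left out it was 0.0043. No other axis gene had an adjusted p under 0.05 in any setting, and those of Cish ran from 0.0341 to 1. The other Cish probe set had a difference of -0.11 and that of Socs3 one of 0.06, both under background. Repeated values are common in the deposited table, where 18203 of the tested probe sets held 1 value on at least 2 arrays, but no other probe set held the same 5 values as any axis gene.

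**Figure D2:**
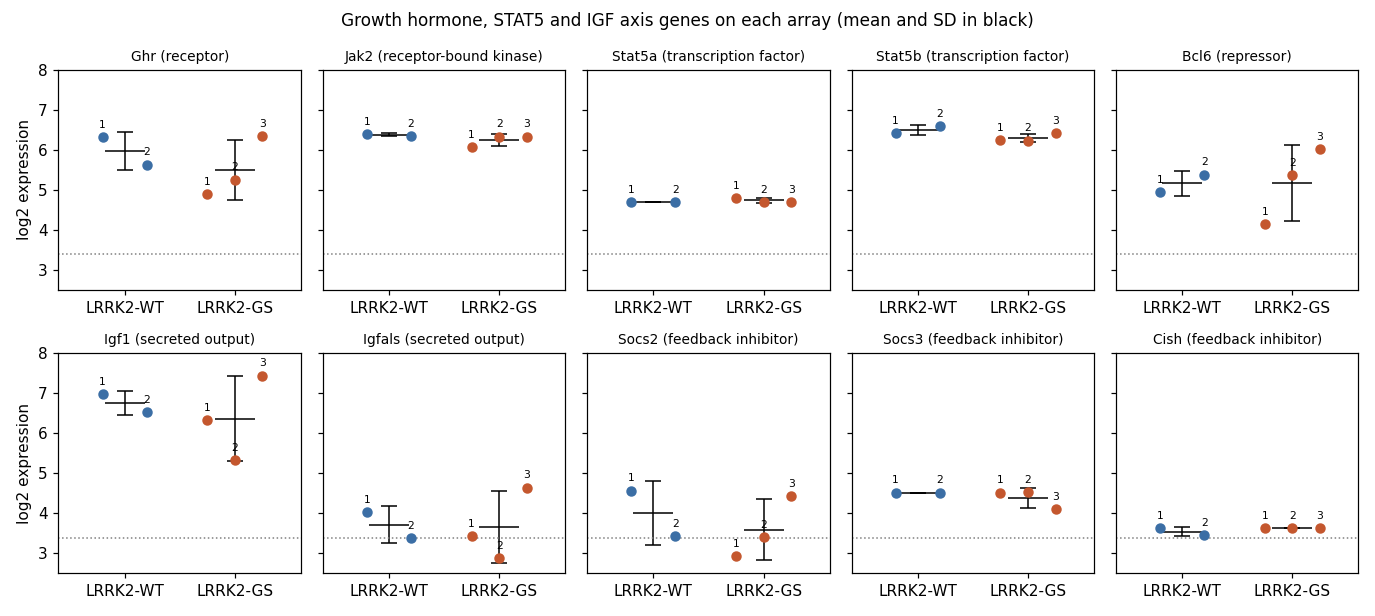
Log2 expression of each axis gene on the 2 LRRK2-WT arrays (blue) and the 3 LRRK2-GS arrays (orange), numbered by replicate, with the group mean and SD in black and the background level of 3.39 as a dotted line. The LRRK2-GS arrays of Ghr, Bcl6, Igf1, Igfals and Socs2 spread over more than 1 log2 unit, and only the groups of Jak2 do not overlap.

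The spread within LRRK2-GS was counted by rules chosen after the values had been seen. In 5 of the 10 genes (Ghr, Bcl6, Igf1, Igfals and Socs2) the LRRK2-GS arrays spanned over 1 log2 unit, as they did in 2.2% of all probe sets and in 3.42% of the 12649 above background. LRRK2-GS array 3 was the single highest array in 5 of 10 (Ghr, Bcl6, Igf1, Igfals and Cish), beside 17.7% of probe sets and 15.3% of those above background. In Cish its lead was small, 3.64 against 3.62 on the next arrays, close to background. LRRK2-WT array 1 and LRRK2-GS array 3 were the highest 2 in 4 of 10 (Ghr, Igf1, Igfals and Socs2), beside 4.36% and 5.5%. Probe sets with a tie at the deciding place cannot meet these rules, which lowers the shares. Over all probe sets, the deviations of this pair of arrays from their group means correlated at r = 0.19, a description across probe sets that are not independent. Such deviations cancel out within a group, so this r is tied to those of the other arrays and shows no separate link. Without LRRK2-GS array 3, both remaining LRRK2-GS arrays were lower than either LRRK2-WT array in 5 of 10 (Ghr, Jak2, Stat5b, Igf1 and Socs2). The shares were 7.55% of probe sets and 11% of those above background, and limma still called 0 of the 10. LRRK2-GS array 3 was singled out because it was high in several of these same genes. Leaving it out therefore raises this count partly by construction, and the shares are no test of it. Some hepatocyte markers had the same order of arrays. LRRK2-WT array 1 and LRRK2-GS array 3 were the highest 2 in 7 of the 22, such as the transthyretin gene Ttr (12.05 and 11.98 against 11.85, 11.33 and 12.31). The log2 of the summed linear level of the whole hepatocyte list was 15.75 on both LRRK2-WT arrays, 15.57 and 15.58 on LRRK2-GS arrays 1 and 2, and 15.73 on LRRK2-GS array 3. That of the 20 astrocyte markers was 11.29 and 11.11 on the LRRK2-WT arrays and 10.82, 11.02 and 11.28 on the LRRK2-GS arrays. The astrocyte sum was highest on LRRK2-WT array 1 and LRRK2-GS array 3, and the hepatocyte sum on the 2 LRRK2-WT arrays. A sum of linear levels is carried by its brightest genes, in the astrocyte list led by Ndrg2 and Clu, which liver expresses as well. The astrocyte sum is therefore no measure of astrocyte content. Aqp4, under background, read 2.67 and 2.83 on the LRRK2-WT arrays and 2.68, 2.92 and 2.68 on the LRRK2-GS arrays. The part of either list in the axis genes was not tested.

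**Figure D3:**
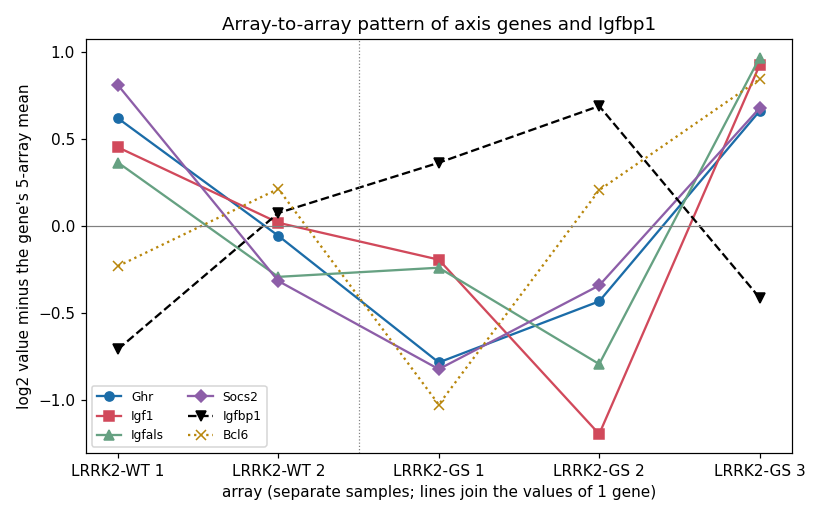
Log2 value of each gene minus its own mean over the 5 arrays, in log2 units, for 5 axis genes and for the IGF binding protein Igfbp1 (dashed); lines join the values of 1 gene and the order of arrays carries no meaning. Ghr, Igf1, Igfals and Socs2 are highest on LRRK2-WT array 1 and LRRK2-GS array 3, where Igfbp1 is lowest.

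Among the signalling partners of the receptor, 1 was over 1.5-fold apart. Of 18 listed signalling partners 16 were measured, of which 5 were higher in LRRK2-GS and 11 lower, with a median difference of -0.05, and limma called 0 of them. The groups did not overlap in 1 with LRRK2-GS higher, beside 3.76% of all probe sets and 3.36% of those above background. They did not overlap in 2 with LRRK2-GS lower, beside 3.74% and 5.45%. Irs2, an adaptor that passes insulin and IGF1 signals on, read 6.55 and 5.99 in LRRK2-WT and 4.95, 5.51 and 5.68 in LRRK2-GS. The groups did not overlap, with all LRRK2-GS arrays the lower, and the difference of -0.89 (interval -1.83 to 0.05, adjusted p = 0.826) was -0.61 without LRRK2-WT array 1. Sh2b1, an adaptor that enhances JAK2 activity, was higher on each LRRK2-GS array than on either LRRK2-WT array, at a difference of 0.26 (interval -0.09 to 0.61) that was 0.16 without LRRK2-WT array 1. The kinase Tyk2 had a difference of 0.23, Socs4 of -0.19 and Socs5 of -0.19, each with overlapping groups. A single array carried each of these values: without LRRK2-GS array 1 Tyk2 was 0.03 and Socs4 -0.06, and without LRRK2-WT array 2 Socs5 was -0.01. Socs5 was -0.36 without LRRK2-WT array 1 (limma adjusted p = 0.0481, not over 1.5-fold), and its adjusted p ran from there to 1. Of the 7 listed hypothalamic and pituitary genes, 6 were measured and only Sst (0.16, and 0.03 without LRRK2-WT array 2) and Ghsr (-0.0076) had means above background, which the growth hormone gene Gh itself did not.

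In the IGF system the 5 largest differences were those of binding proteins. Of 16 measured genes 9 were higher in LRRK2-GS, 6 were lower and 1 was equal, with a median of 0.03, and limma called 0. The groups did not overlap in 1 gene, with LRRK2-GS lower, beside 3.74% of all probe sets and 5.45% of those above background. Igfbp1, a liver-secreted binding protein that insulin represses, read 10.13 and 10.91 in LRRK2-WT and 11.20, 11.52 and 10.42 in LRRK2-GS. LRRK2-WT array 1 and LRRK2-GS array 3, the highest 2 for Igf1, were the lowest 2 for Igfbp1, and LRRK2-GS array 2, the lowest for Igf1, was the highest. The difference of 0.53 (interval -0.83 to 1.89, adjusted p = 0.826) ranged from 0.14 to 0.92 when 1 of the LRRK2-WT arrays was left out. Igfbp2 read 10.08 and 9.80 against 8.92, 9.82 and 9.88, a difference of -0.40 (interval -1.49 to 0.69) that rested mostly on LRRK2-GS array 1, without which it was -0.09. Igfbp5 (0.28), Igfbp7 (-0.24) and Igfbp4 (-0.16) differed less and also depended on single arrays. Leaving out 1 array moved Igfbp5 between 0.11 and 0.45, Igfbp7 between -0.42 and -0.07 and Igfbp4 between -0.21 and -0.05.

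Liver genes whose sex bias depends on the growth hormone pattern leaned in the direction of their bias in counts and medians, and limma called 0 of them. These lists were written with the direction of some of their genes already known here. The counts therefore give no independent evidence of it, and the shares beside them are no test of the lists. Of 19 measured male-biased genes 15 were higher in LRRK2-GS and 4 lower, with a median difference of 0.37, and in 8 the groups did not overlap, LRRK2-GS being higher (3.76% of all probe sets). Of 18 measured female-biased genes 2 were higher, 15 lower and 1 equal, with a median of -0.43. In 9 LRRK2-GS was lower with no overlap, beside 3.74% of all probe sets and 5.45% of those above background. Nox4, an NADPH oxidase, had a difference of 1.71 (interval 0.21 to 3.20) and its LRRK2-GS arrays all lay above 4.32, the higher LRRK2-WT value. Cyp7b1, an oxysterol hydroxylase, read 5.77 and 5.24 against 6.47, 6.11 and 8.54, so LRRK2-GS array 3 stood apart, and the difference of 1.54 was 0.79 without it. LRRK2-GS array 3 was the single highest array in 12 of the 19 male-biased genes and in 1 of the 18 female-biased ones. The share was 17.7% over all probe sets and 15.3% over those above background. Gstp1 (1.88), Aox1 (1.55) and Susd4 (0.95) had groups that did not overlap, too. On the female-biased side, the nuclear cofactor Trim24 read 7.44 and 7.20 against 5.95, 6.18 and 5.76 (difference -1.35), and Nt5e had -1.59, Slco1a4 -1.42, Abcd2 -1.15 and Cyp39a1 -1.05, the last being -0.59 without LRRK2-WT array 2. Adjusted p-values of these 10 genes were 0.826. Xist (-5.73) and Eif2s3y (4.24) separated the same arrays, so that genotype and sex-linked differences cannot be told apart.

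**Figure D4:**
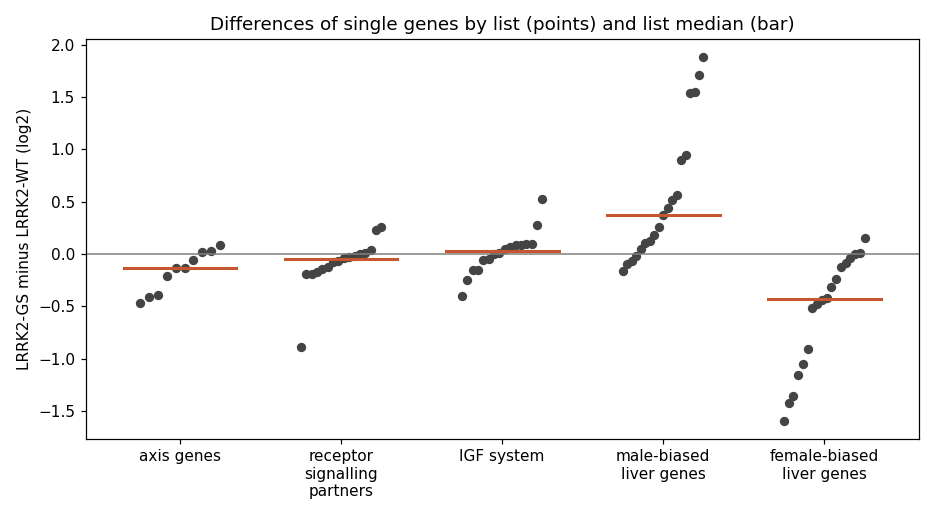
Difference LRRK2-GS minus LRRK2-WT in log2 units for each measured gene (points, sorted within a list) and the list median (bar). Medians are -0.13 for the axis genes, -0.05 for signalling partners, 0.03 for the IGF system, 0.37 for male-biased and -0.43 for female-biased liver genes.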

How the data were processed

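The authors hybridized RNA of 2 LRRK2-WT and 3 LRRK2-GS samples to 1-colour Affymetrix Mouse 2.0 ST arrays and exported them with Affymetrix Command Console software. The deposited table holds log2 values of 33640 probe sets. The sources used here do not state how these were background-corrected, summarized and normalized, and base 2 was taken from the range of the values and the linear ratios of the study's gene list. Values were used as deposited, with no filter.

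Gene names came from the annotation of the platform and were matched by gene ID with the RefSeq table of GRCm38.p6 (23203 of 23396 matched). Probe sets without a single symbol (1812 had several and 8432 had none) were not tested. limma 3.58.1 in R 4.3.3 compared LRRK2-GS with LRRK2-WT over 23396 probe sets, two-sided, with default eBayes, Benjamini-Hochberg adjustment and no replicate block. The prior degrees of freedom were 0.595, so that each gene's spread rests mostly on its own 5 values. The steps were tested on simulated data. The axis genes and lists were chosen with earlier results of these data known. Beside the axis genes, the text names at most 5 genes of each pathway list (the largest differences above background), up to 3 of the brightest astrocyte and hepatocyte markers, Gfap and Aqp4, and sex chromosome genes. Ttr and Gh were chosen after their values were seen.

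Alternatives were quantile normalization or cyclic loess of the deposited values, array weights, a prior that is trended and robust, leaving out dim probe sets, testing all probe sets, averaging the probe sets of a gene, a replicate block, the methods' t-test and leaving out each array.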

Additional observations from a re-analysis of the deposited data

How the results depend on the processing

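The methods' t-test gave 0 axis genes and 336 probe sets at an unadjusted p under 0.05, and called none. The number of axis genes called was 0 under all 14 alternatives. Over all probe sets 0 genes were called under every alternative except those that leave out 1 array, where the count ran from 0 to 28 (0 to 14 higher and 0 to 14 lower). Leaving out LRRK2-WT array 1 gave 26 and leaving out its partner gave 28, the lone LRRK2-WT array being taken to spread as those of LRRK2-GS do. The count of axis genes below both LRRK2-WT arrays on every LRRK2-GS array was 0 after quantile normalization and 0 after cyclic loess, and 1 to 5 when an array was left out, with 5 without LRRK2-GS array 3. The count above was 1 after quantile normalization and 0 to 1 when an array was left out. Of 140 alternative differences of the axis genes 12 turned sign, none of them called. With arrays left out the ranges that crossed 0 were -0.40 to 0.53 for Bcl6, -0.93 to 0.13 for Igf1, -0.55 to 0.33 for Igfals, -0.97 to 0.15 for Socs2 and -0.21 to 0.0089 for Socs3, and -0.034 to 0.019 for Ghsr. Cish was -0.011 as the mean over its probe sets. With the replicate block the difference of Bcl6 was -0.40 and that of Socs3 0.0089, since the block leaves LRRK2-GS array 3 without a partner, and no call changed. Deviations from the group means gave r across probe sets of -0.13 for arrays of number 1 and 0.09 for number 2. LRRK2-WT array 1 and LRRK2-GS array 3, which share no number, had r = 0.19. Within each group these deviations cancel out, so the 3 values of r are tied to each other by arithmetic. They cannot decide whether the numbers mark pairs, and the numbers were not taken as pairs. The cause of the other changes was not tested.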
